A study of Homo sapiens with 6 samples.

Results

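The 86 autosomal protein-coding genes named CDH with a number or PCDH were examined for open chromatin in EndoC-βH3 cells, out of 18765 autosomal protein-coding genes in the GENCODE 44 annotation. Of these, 53 lie in the protocadherin clusters of chromosome 5, with 15 in the alpha, 16 in the beta and 22 in the gamma cluster, and 33 lie elsewhere. Regions were assigned by position alone. Those within 2 kb of a start site of such a gene were its promoter regions, and a distal region was any other region whose nearest protein-coding start site, within 100 kb, was that of such a gene. This gave 312 of the 108542 regions in the table, of which 76 were promoter and 236 distal regions. No promoter region was shared between 2 of the genes.

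EndoC-βH3 is a human beta cell line that carries removable immortalising transgenes and a Cre recombinase activated by 4-hydroxytamoxifen (4-OHT). ATAC-seq, in which a transposase inserts sequencing adapters into open DNA, was run on 3 libraries of non-senescent cells, which were untreated controls, and on 3 libraries of senescent cells, treated with 4-OHT for 3 weeks. Both groups were the same cell line with the genotype given as WT, and each library came from 100000 cells. The value used here is the authors' mean signal, which is the average over all 6 libraries of the reads in a region after scaling for depth, given below per 100 bp of region so that regions of different width can be compared. It joins both groups, so no difference between senescent and non-senescent cells is described, and it carries no error, so differences between genes are descriptions without a test.

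Cadherins are calcium-dependent adhesion proteins of the cell surface. Classical cadherins bind the same cadherin on a neighbouring cell and are tied to the actin cytoskeleton by catenins, and E-cadherin and N-cadherin hold islet cells together. Protocadherins are a larger family with weaker adhesion, studied mostly in neurons. In the clusters of chromosome 5, each variable exon has a promoter of its own, and in the alpha and gamma clusters it is spliced to constant exons shared by the whole cluster, so that a cell can display its own combination of proteins. Most of these promoters share a conserved element with the core CGCT, and CTCF and cohesin are known to link them to enhancers. The genes at the far end of the alpha and gamma clusters, known as C type, differ in sequence from the others.

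The shared element is shown first, since it is what the clustered promoters have in common. Windows of 300 bases, from 250 before to 50 after the start of a gene, were taken from RefSeq (GRCh38.p14) and matched 67 of the 86 genes, 47 in the clusters and 20 outside. No window was matched for CDH1, CDH3, CDH5, CDH6, CDH11, CDH13, CDH15, CDH16, CDH17, CDH22, CDH24, PCDH10, PCDH20, PCDHA3, PCDHA13, PCDHB6, PCDHB11, PCDHGA12 and PCDHGC5. The element is printed as 30 bases on the strand of the gene, 5′ to 3′, with CGCT in capitals, for promoters with a listed region and for promoters of the same cluster without one. In the alpha cluster, PCDHA4 and PCDHA10 had a region and PCDHA5 and PCDHA8 had none.
PCDHA4: tttggagccacatgatgtCGCTctttacca
PCDHA10: cctaaagccaccggatgtCGCTgtcgtcca
PCDHA5: ctttcatccacatgatgtCGCTggacaccg
PCDHA8: tttgaagccacatgatgtCGCTgtctacca

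In the beta cluster, PCDHB13 and PCDHB8 had a region and PCDHB12, PCDHB14 and PCDHB2 had none.
PCDHB13: tgtgaggacgcgtggtggCGCTgcaggata
PCDHB8: tgtgaggacccgtggtggCGCTgcaggata
PCDHB12: tgtggagacgcgtggtggCGCTgcaggata
PCDHB14: catggagacacatggtggCGCTacaggata
PCDHB2: ggaagagacgcggggtggCGCTgcagcctt

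In the gamma cluster, PCDHGA10, PCDHGB5 and PCDHGA11 had a region and PCDHGA9, PCDHGB6 and PCDHGA1 had none.
PCDHGA10: tcttaggactctgagcgcCGCTgttcacct
PCDHGB5: agtgctgactctgggcgcCGCTgttggcca
PCDHGA11: agaatgggctctaggcgcCGCTgctcacca
PCDHGA9: gcttaggactctgagcgcCGCTgttgatca
PCDHGB6: cacggagcctctgggcgcCGCTgtcggcca
PCDHGA1: ggttaggactgtgggcgcCGCTgttcacta

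Open chromatin was listed at far fewer promoters in the clusters than elsewhere. A promoter region was found for 20 of the 53 clustered genes (37.7%) and for 31 of the 33 others (93.9%), beside 14968 of all 18765 genes (79.8%). Where a region was listed, the strongest of each gene had a median mean signal per 100 bp of 16.9 in the clusters and 40.5 outside, beside 69.6 over all genes with a promoter region. The middle clustered gene thus stood at percentile 10.7 of all such genes, and the middle gene outside at percentile 28.1.

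**Figure D1:**
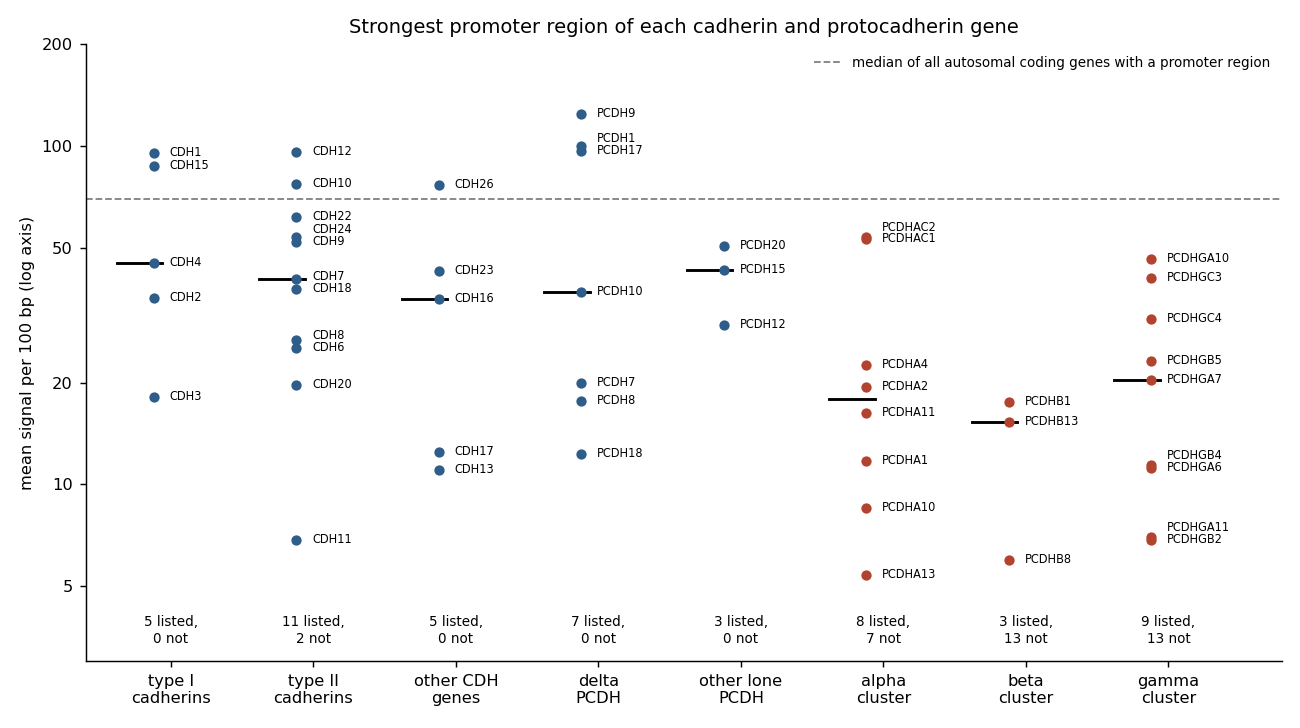
Mean signal per 100 bp, on a log axis, of the strongest promoter region of each gene, by gene group. Each point is a gene, the short bar is the median of its group, the dashed line is the median of 69.6 over all autosomal coding genes with a promoter region, and the numbers below count genes with and without a listed region. All 20 clustered genes with a region lie under the dashed line.

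Among the type I classical cadherins, all 5 genes had a promoter region. CDH1, which encodes E-cadherin, had 95.5 per 100 bp, and its strongest region (chromosome 16, 68737023 to 68737693, hg38) covered the start of the gene and the untranslated part of its leading exon. CDH15, the cadherin of muscle, had 87.2. CDH4, or R-cadherin, had 45.2 and CDH2, or N-cadherin, had 35.6. CDH3, or P-cadherin, which neighbours CDH1 on chromosome 16, was lowest at 18.1. The signal of CDH1 was therefore above the median of all genes, and that of N-cadherin below it.

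Of the 13 type II cadherins, 11 had a promoter region, with a median of 40.5 per 100 bp. CDH12, CDH10 and CDH22 were highest. CDH12 had 96.2, at an internal start site inside the gene (chromosome 5, 22212393 to 22213317), CDH10 had 77.2 and CDH22 had 61.8. The value of CDH10 came from a region that ended 1897 bp before its canonical start, and the region covering that start had 55.2. CDH20 had 19.7 and CDH11, a cadherin of mesenchymal cells, had 6.87, the lowest value outside the clusters. CDH5, the cadherin of endothelial junctions, and CDH19, known from Schwann cells, were the only genes outside the clusters without a promoter region. Both still had distal regions, 6 for CDH5 and 5 for CDH19.

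The remaining genes with CDH symbols all had a promoter region. CDH26 was highest at 76.6, at an internal start site (chromosome 20, 59988081 to 59988853). CDH23, a part of the tip links of hair cells, had 42.6, and CDH16, or kidney cadherin, had 35.2. CDH17, or liver-intestine cadherin, had 12.5 and CDH13, a cadherin anchored to the membrane by a lipid, had 11.04.

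Protocadherins outside the clusters were open at every gene. All 7 delta protocadherins had a promoter region, with a median of 37.1. PCDH9 had 124.3, the highest of all 86 genes, in a region covering its start (chromosome 13, 67229557 to 67231414). PCDH1 had 99.9 and PCDH17 had 96.7, while PCDH8 had 17.6 and PCDH18 had 12.3. The value of PCDH17 came from a region that ended 1548 bp before its canonical start. A weaker region, beginning 322 bp after that start, had 28.5. Of the other 3, PCDH20 had 50.5, PCDH15, the partner of CDH23 in tip links, had 42.9, and PCDH12, known from endothelium, had 29.5.

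In the alpha cluster, 8 of 15 genes had a promoter region (53.3%), with a median of 17.8 per 100 bp. The C type genes PCDHAC2 and PCDHAC1 had 53.9 and 52.9, more than any other clustered gene. The next was PCDHA4 with 22.5, followed by PCDHA2 with 19.4, PCDHA11 with 16.3 and PCDHA1 with 11.7. PCDHA10 had 8.50 and PCDHA13 had 5.41, the lowest of all 86 genes. The genes PCDHA3, PCDHA5, PCDHA6, PCDHA7, PCDHA8, PCDHA9 and PCDHA12 had none, and the 5 from PCDHA5 to PCDHA9 follow each other without a gap.

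The beta cluster had the smallest share of genes with a listed region. Only 3 of its 16 genes had a promoter region (18.8%): PCDHB1 with 17.5, PCDHB13 with 15.3 and PCDHB8 with 5.96 per 100 bp. PCDHB1 is the outermost gene of the cluster. The genes without a region were PCDHB2, PCDHB3, PCDHB4, PCDHB5, PCDHB6, PCDHB7, PCDHB9, PCDHB10, PCDHB11, PCDHB12, PCDHB14, PCDHB15 and PCDHB16. They included a run of 6 genes from PCDHB2 to PCDHB7 and a run of 5 from PCDHB16 to PCDHB12.

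In the gamma cluster, 9 of 22 genes had a promoter region (40.9%), with a median of 20.3. PCDHGA10 had 46.5, and the C type genes PCDHGC3 and PCDHGC4 had 40.8 and 30.9. PCDHGB5 had 23.2, PCDHGA7 had 20.3, PCDHGB4 had 11.4 and PCDHGA6 had 11.1. The lowest were PCDHGA11 with 6.998 and PCDHGB2 with 6.83. No region was listed for PCDHGA1, PCDHGA2, PCDHGA3, PCDHGA4, PCDHGA5, PCDHGA8, PCDHGA9, PCDHGA12, PCDHGB1, PCDHGB3, PCDHGB6, PCDHGB7 and PCDHGC5. A run of 7 genes without a region crossed from PCDHB14 to PCDHGA4, although the promoter of TAF7, a general transcription factor gene that lies between them, had 53.4 per 100 bp. On either side of PCDHGA10, PCDHGB6 and PCDHGB7 had no region, but both are near copies whose values are uncertain, and the next genes were PCDHGA9 without a region and PCDHGA11 with one.

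C type genes stood apart within the clusters. Of these 5 genes, 4 had a promoter region, all but PCDHGC5, with a median of 46.8 per 100 bp, against 16 of the 48 other clustered genes (33.3%), with a median of 13.5. Only PCDHGA10 among the latter reached the range of the C type genes, 30.9 to 53.9.

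**Figure D2:**
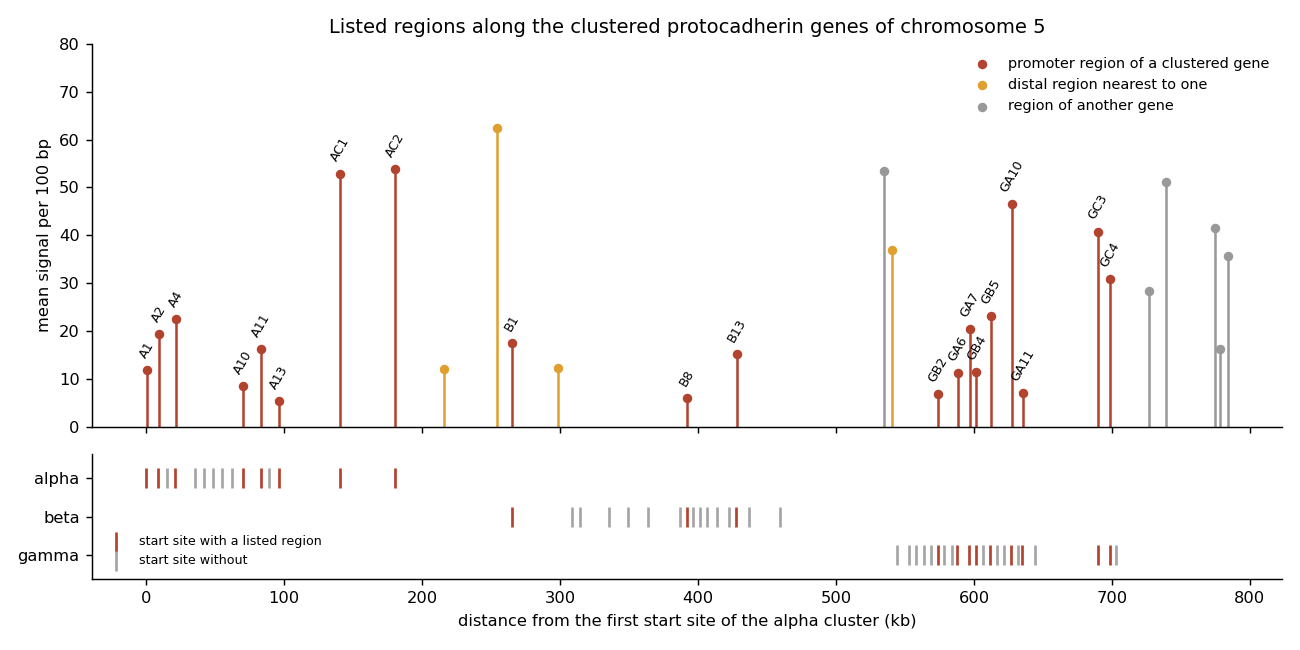
Mean signal per 100 bp of every listed region along the clustered protocadherin genes, against the distance in kb from the first start site of the alpha cluster. Red marks promoter regions of clustered genes, named without PCDH, orange marks distal regions nearest to such a gene and grey marks regions of other genes, and the ticks below show start sites with (red) and without (grey) a region. The tallest line of a clustered gene is the distal region between the alpha and beta clusters, at 62.5.

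The open regions of the clusters lay mostly inside the genes. The middle of the strongest region was downstream of the start site in 18 of 20 clustered genes, at a median of 279.5 bp, and it fell in a coding exon in 14 of them. Outside the clusters it was downstream in 17 of 31 genes, at a median of 145 bp, and in a coding exon in 1. The clustered genes carry most of their coding sequence in the exon that begins at the promoter. The exceptions were PCDHB1 and PCDHGC4, whose regions were centred 100 and 137 bp upstream.

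The shared element lay near the upstream edge of these regions. For each cluster, the 9 bases around CGCT that were found in most windows were taken from the sequences themselves. In the alpha cluster GATGTCGCT was found in 9 of 13 windows, in the beta cluster GGTGGCGCT in 13 of 14, and in the gamma cluster GCGCCGCTG in 10 and GTCGCTGTT in 6 of 20. Searched on both strands, 38 of the 47 clustered windows (80.9%) held an element, beside 437 of 14578 windows of all genes (3.00%), but the elements were chosen on the clustered windows. CGCT began at a median of 55 bp before the start site, and between 100 and 30 bp before it in 36 of 38 genes.

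Presence of the element did not go together with a listed region. It was found in 13 of 19 windows of clustered genes with a region (68.4%) and in 25 of 28 without one (89.3%). None of the 4 C type windows held it, nor did those of PCDHA11 and PCDHB1, which make up the 6 with a region and no element. Without the C type genes the shares were close, at 13 of 15 windows with a region (86.7%) and 25 of 28 without one (89.3%). Of the 13 elements at genes with a region, 9 lay inside the region, at a median of 64 bp from its upstream edge, and those of PCDHA10, PCDHB8, PCDHGB2 and PCDHGB4 lay just outside it.

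**Figure D3:**
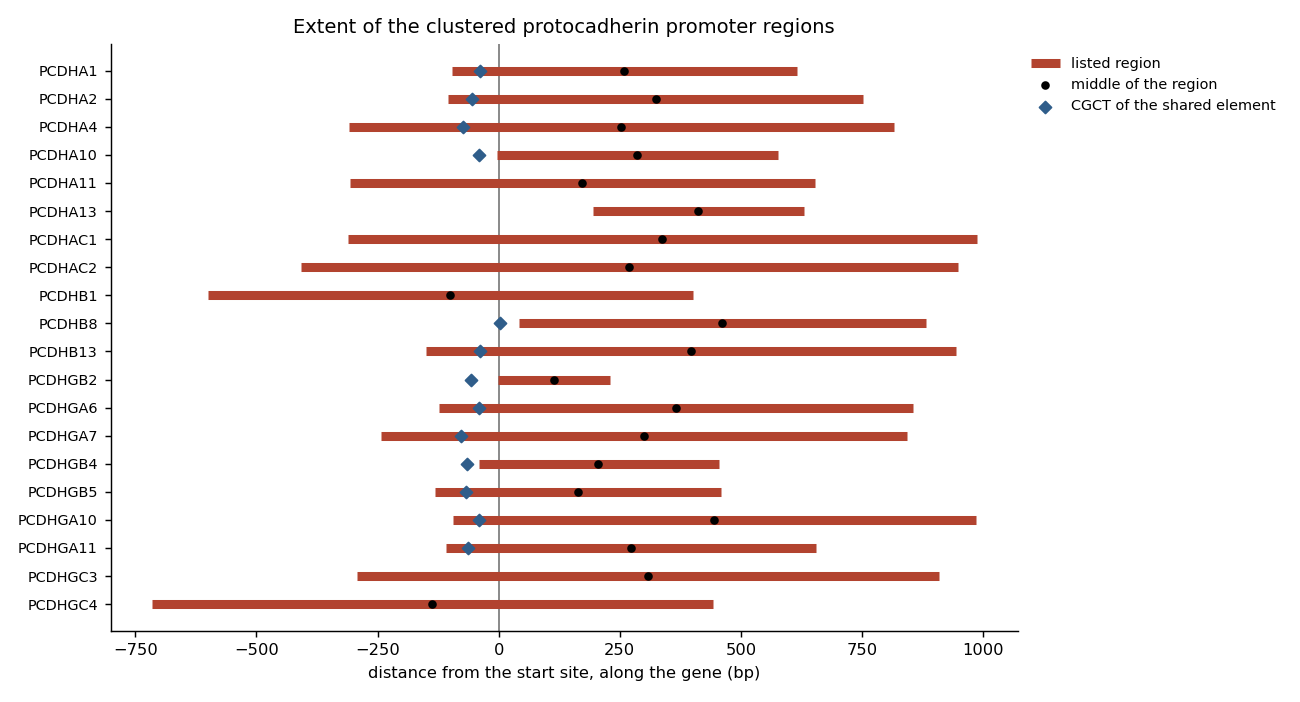
Extent of the promoter region of each of the 20 clustered genes with one, in bp from the GENCODE start site along the gene. Bars are the regions, black points their middles and blue diamonds the start of CGCT in the shared element, where one was found. In 18 of 20 genes the middle lies to the right of the start site, while every diamond except that of PCDHB8 lies to its left.

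Base composition of the windows followed the same division. Their median GC content was 39.7% in the clusters, 56.8% in the 20 windows outside and 64.0% over all genes. Within the clusters it was 43.3% with a region and 38.3% without, and 61.8% in the 4 C type windows. Without the C type genes the windows with a region had 41.0%. In 300 bases centred on the promoter regions themselves the gap was smaller. The medians there were 57.8% in the clusters, 60.7% outside and 65.7% over all promoter regions. GC content can change how well a sequence is amplified and read in ATAC-seq, and its part in the signal was not tested.

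Further motifs were searched in the same windows. The CTCF core motif of 12 bases, with up to 1 mismatch, was found in 1 of 47 (2.13%), beside 5.46% of all windows. That match was at PCDHB9 and overlapped its shared element, so the core and the element are not separate sequences there. An element with more than 1 mismatch to the core was not counted. The low share says only that these letters are not in this window, and binding of CTCF was not tested. Over the whole width of the promoter regions, 3 of the 20 in the clusters held it, those of PCDHA4 and PCDHA13 without a mismatch and that of PCDHA11 with 1. CCAAT was found in 16 of the 47 clustered windows (34.0%), in 16 of the 20 outside and in 36.2% of all. TATAAA was found in 6 clustered windows (12.8%), in 2 outside and in 9.47% of all.

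Some clustered promoters have near copies, so that reads could have been placed on the wrong gene or removed. The windows of PCDHGB5 and PCDHGB4 matched another place in the genome at 96.1% and 96.0% identity over 203 and 200 bp. Those of PCDHB13 and PCDHB8 did so at 94.7% and 94.3% over 300 and 298 bp, and those of PCDHGB6 and PCDHGB7 at 94.3% over 159 and 158 bp. The values of these 6 genes are uncertain for that reason. No other clustered window had a match as close. Only the windows were searched, so the sequence further downstream, where most of these regions are centred, was not checked for copies. PCDHA3, PCDHA13, PCDHB6, PCDHB11, PCDHGA12 and PCDHGC5 had no window and were not checked at all. Uncertain values may therefore not be limited to the 6 genes.

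Distal regions were almost absent from the clusters. The clustered genes had 4, or 0.834 per 100 kb of the sequence nearest to their start sites, beside 3.19 for the 33 genes outside and 3.50 over all genes. The 4 were nearest to PCDHAC2 (12.1 per 100 bp), PCDHB1 (62.5), PCDHB2 (12.3) and PCDHGA1 (36.8). The region nearest to PCDHB1 (chromosome 5, 141039961 to 141041413) lay between the alpha and beta clusters, 9961 bp from the start of PCDHB1, and with a mean signal of 907 it exceeded every promoter region of the clusters. The start of PCDHB1 itself had 175. The 300 bases at the middle of this distal region (chr5:141040538-141040837, hg38, plus strand) are shown because it was the strongest region of the clusters, with the homeodomain motif TAATTA in capitals.
PCDHB1 distal: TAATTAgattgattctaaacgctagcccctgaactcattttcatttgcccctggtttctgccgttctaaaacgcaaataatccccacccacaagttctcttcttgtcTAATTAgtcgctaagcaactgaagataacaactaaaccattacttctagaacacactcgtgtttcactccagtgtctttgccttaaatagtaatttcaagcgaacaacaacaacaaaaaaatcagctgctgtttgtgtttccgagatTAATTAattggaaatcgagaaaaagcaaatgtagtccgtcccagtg

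TAATTA occurred 3 times in these 300 bases. It was found at least once in 9.55% of all distal regions within 100 kb of a gene. Over its whole width of 1452 bp, the region also held 3 CTCF core matches with up to 1 mismatch, 2 of them exact. A further region overlapped the far end of the gamma cluster (chromosome 5, 141512265 to 141514348, 28.3 per 100 bp), but its nearest start site was that of DIAPH1, so it was not counted.

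Outside the clusters, 232 distal regions were assigned to 31 of the 33 genes. They lay in introns in 148 cases, between genes in 83 and in an untranslated exon in 1. CDH4 had 26, CDH18 had 20, CDH23 had 17, CDH20 had 14 and CDH22 had 12, while PCDH20 and CDH24 had none. The length of sequence nearest to a gene differs widely, so the numbers are also given per 100 kb. By that measure, CDH22 had 10.3 and CDH4 had 6.23, above the pooled rate of 3.50 over all genes, and CDH18 with 3.75 was close to it. PCDH15 had 8 regions in the longest stretch of all, 0.782 per 100 kb, and PCDH7 had 1, or 0.510.

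**Figure D4:**
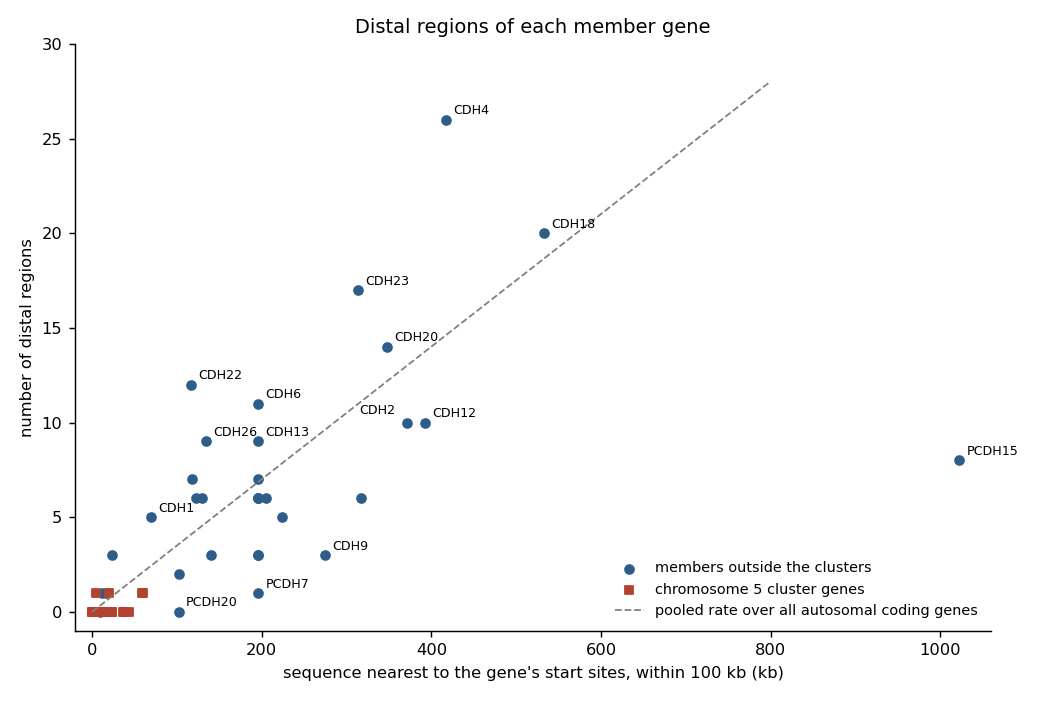
Number of distal regions of each gene against the length of sequence, in kb, that lies nearest to its start sites within 100 kb. Blue circles are genes outside the clusters, red squares are clustered genes and the dashed line is the pooled rate of 3.50 regions per 100 kb over all autosomal coding genes. CDH4, CDH23 and CDH22 lie above the line and PCDH15 and PCDH7 far below it.

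The distal regions had the strength of distal regions in general. Their median was 20.2 per 100 bp beside 18.7 over all distal regions within 100 kb of a gene, and 23 of the 236 reached the strongest 10.0% of these. The strongest 10 belonged to CDH23, CDH22, CDH13, CDH19, CDH4 and CDH1. CDH23 had 4 of them, at 224.4, 112.4, 103.8 and 102.7 per 100 bp, all in its introns. CDH22 had 2, at 221.8 and 133.3. CDH13 had 192.0, CDH19 had 185.6, CDH4 had 175.2 and CDH1 had 120.0.

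Strong distal regions thus also occurred at genes with a weak promoter or none. CDH13 had 11.04 at its promoter and 192.0 in an intron 12269 bp from the nearest start site (chromosome 16, 82639308 to 82640017). CDH19 had no promoter region and 185.6 in an intron 48065 bp away (chromosome 18, 66523235 to 66524106). At CDH1 both were strong, with 120.0 in an intron 41107 bp away (chromosome 16, 68778459 to 68779418).

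The 300 bases at the middle of 3 of these regions are shown, all on the plus strand of hg38, with motif matches in capitals. The first, at CDH23 (chr10:71527143-71527442), came from the strongest region, and these 300 bases held none of the motifs searched, while the whole region held a CTCF core match with 1 mismatch. The second, at CDH22 (chr20:46279199-46279498), held the homeodomain motif TAATTA, the AP-1 motif TGANTCA and the E-box CAGATGG. The third, at CDH19 (chr18:66523521-66523820), held the forkhead motif GTAAACA, read on the other strand, and a CTCF core match with 1 mismatch. Among the 10 strongest regions, those of CDH22 at 221.8, CDH13, CDH4 and CDH23 at 103.8 also held no motif in their middle 300 bases. Apart from these and the first region shown, each of the 10 held at least 1. The 3 shown are examples and do not stand for the rest.
CDH23 distal: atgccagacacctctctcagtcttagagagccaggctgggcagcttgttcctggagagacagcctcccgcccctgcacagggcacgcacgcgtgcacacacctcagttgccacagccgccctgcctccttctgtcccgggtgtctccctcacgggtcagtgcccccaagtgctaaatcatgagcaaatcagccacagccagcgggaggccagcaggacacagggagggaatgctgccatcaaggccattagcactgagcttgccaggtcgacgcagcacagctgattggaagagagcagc
CDH22 distal: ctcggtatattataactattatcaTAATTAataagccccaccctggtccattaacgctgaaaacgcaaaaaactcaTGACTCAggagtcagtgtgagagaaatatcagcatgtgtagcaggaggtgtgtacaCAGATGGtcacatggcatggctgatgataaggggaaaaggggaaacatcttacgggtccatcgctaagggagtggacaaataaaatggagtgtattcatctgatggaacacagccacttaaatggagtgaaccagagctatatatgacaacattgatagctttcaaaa
CDH19 distal: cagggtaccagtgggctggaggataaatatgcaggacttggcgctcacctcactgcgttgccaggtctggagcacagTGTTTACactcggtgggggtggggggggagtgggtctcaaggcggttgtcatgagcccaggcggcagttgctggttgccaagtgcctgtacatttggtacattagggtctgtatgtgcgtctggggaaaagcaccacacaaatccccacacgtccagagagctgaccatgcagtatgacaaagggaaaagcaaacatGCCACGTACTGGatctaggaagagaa

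Motif shares over all 236 distal regions were taken from 300 bases at the middle of each, on both strands. TAATTA was found in 14.8% of them, beside 9.55% of all distal regions within 100 kb of a gene, and TGANTCA in 16.5% beside 11.3%. GTAAACA was found in 11.9% beside 9.22%, the MAF motif TGCTGAC in 9.75% beside 7.68%, and CAGATGG in 13.98% beside 14.5%. The CTCF core, with up to 1 mismatch, was found in 8.90% beside 12.8%. The median GC content of these sequences was 45.0% beside 47.0%, and its part in the shares was not tested.

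The partners of the cadherins all had a listed promoter. All 11 genes of the catenins and their partners had a promoter region, with a median of 74.4 per 100 bp. The highest were JUP, which encodes plakoglobin, with 289.2, PKP4 with 177.4 and VCL, which encodes vinculin, with 144.6. The lowest were CTNND2 with 47.3 and CTNNA1, which encodes an alpha-catenin, with 38.3. CTNNB1, which encodes beta-catenin, had 74.8, and CTNND1, or p120-catenin, had 74.4. Of 24 other genes of the cadherin superfamily, 19 had a promoter region, with a median of 43.8. CELSR3 had 236.0, the desmosomal DSG2 had 97.1 and FAT4 had 87.2, and the lowest were CLSTN1 with 11.3 and FAT1 with 7.67. The epidermal genes DSG1, DSG3, DSG4 and DSC1, and CDHR4, had none.

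Among 11 regulators of the clusters and of classical cadherins, all had a promoter region, with a median of 64.1. ADAM10, a protease that cuts cadherins, was highest at 104.6. CTCF had 92.3, RAD21, a subunit of cohesin, had 65.4 and SMCHD1, a repressor of the clusters, had 62.0. Of the repressors of CDH1, SNAI2 had 95.8 and ZEB1 had 64.1, and SNAI1 had 27.7, ZEB2 10.3 and TWIST1 9.27. REST, a repressor of neuronal genes, had 11.5.

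The label of the cells was checked against markers. All 8 beta cell markers had a promoter region, with a median of 127.0 per 100 bp, against 69.6 over all genes. PDX1 had 205.7, NKX2-2 had 173.8 and NKX6-1 had 150.5, while ABCC8 with 58.9 and SLC30A8 with 54.1 lay below the median of all genes. INS had 142.7, in a region of 5533 bp (chromosome 11, 2153679 to 2159212) that lies downstream of its canonical start at 2161209. That region does not cover the start, so 142.7 is not the value there. INS had 3 promoter regions, which together had 154.4 per 100 bp. Of 8 markers of other islet and stromal cells, 6 had one, with a median of 15.7. KRT19, a marker of duct cells, had 73.7, more than ABCC8 and SLC30A8. PPY had 25.3, SST had 17.1, GCG had 13.99 and COL1A1 had 11.9, and COL3A1 and PTPRC had none.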

How the data were processed

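The data came from ATAC-seq of EndoC-βH3 cells, with 3 non-senescent and 3 senescent libraries, grouped by their labels. According to the methods of the study and the processing notes of the submitters, reads were trimmed with Trim Galore, aligned to hg38 with Bowtie2, freed of mitochondrial reads and duplicates (Picard), shifted for the transposase offset (deepTools), and counted under the union of MACS2 peaks before DESeq2. Versions are not given in the sources used here. To obtain the mean signal of each deposited region, the authors scaled read counts by DESeq2 size factors and averaged all 6 libraries. A union of peaks leaves out weakly open sites, so a gene without a region is not shown to be closed. The other columns hold the authors' comparison of the groups (log2 fold change, its standard error, the test statistic and p-values) and were not used. A mean does not show how deeply a single library was sequenced, and no interval or test was computed for the signal.

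Genes and start sites came from GENCODE 44, and each gene was represented by its promoter region with the highest mean signal. Coordinates are those of the deposited table, and whether its starts count from 0 or 1 is not given in the sources used here. Promoter sequences came from RefSeq (GRCh38.p14), and all 67 equalled hg38. Near copies were sought with blastn 2.17.0 (matches of at least 100 bp). Tables were made with Python 3.11.15 and pandas 2.3.3. Assignment and motif search were tested on simulated data. Genes named were, for each group, the 3 highest and 2 lowest values, every gene where a group has 5 or fewer, all genes without a region, the 5 genes with most distal regions and the 10 strongest distal regions. Others named beside them were chosen after their values were seen. The genes and lists were chosen with earlier results of these data known. Alternatives were promoter windows of 1 and 0.5 kb, a mean signal of at least 50, canonical start sites, a distal limit of 50 kb, start sites of any gene, sums over regions, no division by width, sequence centred on the regions and no mismatch.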

Additional observations from a re-analysis of the deposited data

How the results depend on the processing

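Of 42 values recomputed under the alternatives, 39 were read as unmoved and 3 as moved. Only the difference in shares and the ratio of medians between clustered and other genes could reverse, and 0 of these did. A value was read as unmoved within a ratio of 1.5. For the share of windows with a CTCF core match, an exact binomial interval around the reported share was used instead. With a match in 1 of 47 windows, that interval leaves out 0. Any alternative without a match was therefore bound to be read as moved. Distal regions of clustered genes fell from 4 to 2 when the nearest start site of any gene was used, and rose to 6 with canonical start sites alone. Distal regions of the other genes, 232 as reported, fell to between 158 and 171 in every alternative run for them, and were still read as unmoved. The median GC content of clustered windows with a region, 43.3% before the start site, was 57.8% in sequence centred on the regions. The share of clustered windows with a CTCF core match went from 2.13% to 0 with no mismatch allowed and to 0 in 300 bases centred on the regions, though 3 of the 20 regions held a match over their whole width. Clustered genes with a promoter region numbered 17 to 20 and the others 30 to 31, and the ratio of their medians, 2.40 as reported, ranged from 2.09 to 3.18, the latter without division by width, for which only this ratio was computed. No paired analysis was possible because the mean signal joins all 6 libraries. For the same reason no library could be left out, and the spread between libraries, which limits how small a difference between genes can be read, is unknown.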
